A study of Mus musculus with 24 samples.

Results

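The cytosolic ribosomal protein genes were followed through the 4 groups of a striatal RNA-seq experiment in R6/1 mice, a transgenic line that carries exon 1 of the human huntingtin gene with an expanded CAG repeat under the human huntingtin promoter. Members were the rows of the deposited tables whose gene symbol was Rpl or Rps followed by a number, with any trailing letters, or Rplp0 to Rplp2, without the Rps6k kinases. This rule took 85 of the 24340 genes shared by the 6 tables, made of 49 large-subunit (Rpl) symbols, 32 small-subunit (Rps) symbols, the 3 stalk genes Rplp0, Rplp1 and Rplp2, and Rps19bp1, which matched by name only. A minimum of 1 FPKM in any group (fragments per kilobase of transcript, scaled to the library size, a level per transcript length) was reached by 72 of the 85, against 14124 of all genes.

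Male R6/1 mice, hemizygous for the transgene on a C57BL/6J background, and their wild type (WT) littermates received vehicle (dimethyl sulfoxide in saline) or RGFP109, an inhibitor of the histone deacetylases HDAC1 and HDAC3, at 30 mg/kg by intraperitoneal injection over 23 days. Treatment began at 11 to 14 weeks of age. The striatum was taken 18 h after the final injection, at 14 to 17 weeks of age. The groups were WT-vehicle (5 libraries), R6/1-vehicle (6), WT-RGFP109 (6) and R6/1-RGFP109 (7). Each table compared a pair of groups and held 1 pooled FPKM value per group, so the values below have no spread between animals, no difference was tested, and every count is a count of ratios past a stated size.

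Ribosomal proteins are the protein part of the ribosome. The Rps proteins build the small 40S subunit that reads the mRNA, the Rpl proteins build the large 60S subunit that joins amino acids, and the P proteins form the stalk that recruits the GTPase factors of translation. Most are needed in equal copy number, their mRNAs begin with a pyrimidine tract (the 5′ TOP) through which mTOR signalling sets their translation, and the mouse genome carries many processed pseudogenes of them, copies that keep the spliced sequence almost letter for letter.

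The last property bears on every level below, because a 51-base read that occurs at several loci cannot be placed from its sequence alone. Every 51-base window of a reference transcript (GENCODE M21) was therefore looked up in all other annotated loci, for the 82 members with a coding transcript at the deposited position. A median of 41.3% of a member's windows also occurred at another locus, against a median of 0 over 12603 genes of at least 1 FPKM. Over 50% of the windows were shared for 32 of the 82 members (39.0%) and for 1.10% of those genes. Within the coding sequence alone the median over members was 88.3%.

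The first 51 coding bases show the contrast, with the start codon in capitals. The first 3 of these sequences, from members at a few FPKM, also stand elsewhere in the annotated genome, and the last 3, from members at high FPKM, do not.
Rps6: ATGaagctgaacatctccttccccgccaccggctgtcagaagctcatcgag
Rps12: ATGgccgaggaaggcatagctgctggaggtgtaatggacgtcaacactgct
Rpl21: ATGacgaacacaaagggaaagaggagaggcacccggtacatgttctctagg
Rpl8: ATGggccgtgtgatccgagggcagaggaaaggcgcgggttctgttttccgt
Rpl4: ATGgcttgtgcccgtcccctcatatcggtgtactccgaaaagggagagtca
Rps21: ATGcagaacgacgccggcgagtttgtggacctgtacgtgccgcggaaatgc
The Rps6 window occurred at 7 other loci, the Rps12 window at 7 and the Rpl21 window at 18, while the windows of Rpl8, Rpl4 and Rps21 occurred at 0 others. Rps6, the small-subunit protein that the S6 kinases phosphorylate, was listed at 2.60 FPKM in WT-vehicle, Rps12 at 1.87 and Rpl21 at 1.62. Rpl8, a large-subunit protein, was listed at 449 FPKM, Rpl4, which lines the tunnel for the nascent chain, at 424 and Rps21 at 836. Other members departed from this contrast. The first window of Rpl32 (333 FPKM in WT-vehicle) occurred at 4 other loci, and that of Rpl10a (0.729 FPKM) at 0.

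Transcripts of proteins that a ribosome holds in much the same number thus spread over 3 orders of magnitude in the deposited values. Over the 74 core subunit genes (without listed paralogs, Rps19bp1 and Rpl37rt, which matched no coding transcript), the lowest WT-vehicle value was 0.231 FPKM for Rpl24, the median was 38.1 and the highest was 907 for Rplp1, a ratio of 3923. Of these 74 genes, 23 stayed under 10 FPKM in every group, and in 20 of the 23 every coding window occurred at another locus; the lowest share among the 23 was 97.7%. Among the 51 core genes that reached 10 FPKM, all coding windows were shared in 7, namely Rpl13, Rpl15, Rpl27a, Rpl31, Rpl38, Rpl41 and Rps16. The 11 core genes with under 50% of their coding windows shared were all at 49.8 FPKM or more. Across the 74 genes the rank correlation (Spearman) of the WT-vehicle FPKM with the shared coding percentage was -0.83. With the shared percentage of the whole transcript it was weaker, at -0.54. Over all 82 matched members the values were -0.60 (coding) and -0.35 (whole transcript). All are descriptions over genes whose values come from the same pooled libraries.

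**Figure D1:**
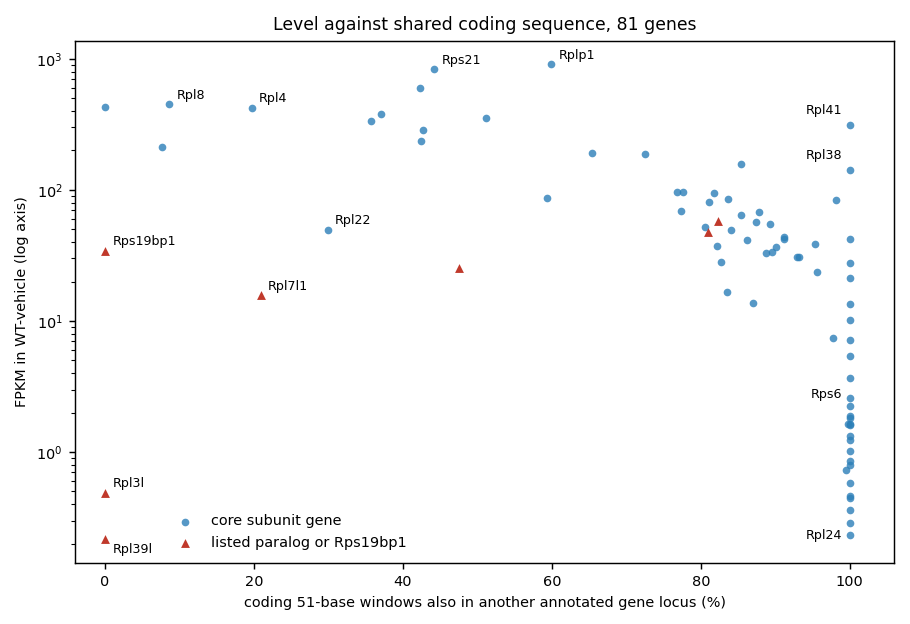
FPKM in WT-vehicle (log axis) against the percentage of coding 51-base windows that also occur at another annotated locus, 1 point per gene, for 81 genes (Rpl10l, listed at 0, is left out). Core genes under 10 FPKM sit at the right edge, Rpl41 and Rpl38 stand above it with all coding windows shared, and the paralogs Rpl3l and Rpl39l are low with none shared.

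Rpl41, whose protein is among the shortest known, and Rpl38 departed from that order. All their coding windows were shared, yet they were listed at 315 and 143 FPKM in WT-vehicle, with 43.4% and 40.1% of the windows of the whole transcript shared. In the other direction, Rpl3l, a paralog known from heart and skeletal muscle, and Rpl39l, known from testis, had no shared window and were listed at 0.489 and 0.218 FPKM. Of the 13 members under 1 FPKM in every group, 9 were core subunits, among them Rpl9, Rpl10, Rpl10a, Rpl12, Rpl24, Rpl27, Rpl28 and Rps28. The members under 1 FPKM that were no core subunits were Rpl3l, Rpl10l, Rpl39l and Rps27rt, with Rpl10l listed at 0 throughout. Next to the minimum, Rpl23a was just inside at up to 1.17 FPKM, and Rpl12 was just outside at up to 0.987.

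Rows outside the naming rule held part of the family's signal. The pseudogene row Rpl34-ps1 was listed at 149 FPKM in WT-vehicle and the merged row of Rpl34 and Rpl34-ps1 at 10.5, while no row carried Rpl34 alone. Rps27 likewise appeared only in a merged row with Rps27rt, at 4.66 FPKM, and Rpl14-ps1 was listed at 9.45 beside 68.8 for Rpl14. Ratios of members with widely shared windows are given below as deposited, and their origin between gene and copies cannot be told apart.

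In WT-vehicle the highest members included Rplp1 (907 FPKM), Rps21 (836), Rps15 (600), Rpl8 (449), Rpl4 (424), Rpl13a (378), Rps14 (353), Rpl32 (333) and Rpl41 (315). The median of all genes of at least 1 FPKM was 11.2 and their 90th percentile 64.6, so these members belonged to the upper tail. Their order had no tested gaps, and neighbours such as Rpl8 and Rpl4 lay close together. The lowest members of the 72 were Rpl23a (1.02), Rpl5 (1.23), Rpl11 (1.31), Rpl21 (1.62), and Rps23 and Rpl19 (both 1.65). All members together summed to 8350 FPKM in WT-vehicle and 7817 in R6/1-vehicle, or 1.88% and 1.93% of the FPKM of all genes, and to 1.86% in WT-RGFP109 and 1.97% in R6/1-RGFP109.

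Levels hardly separated the groups compared with the distance between genes. The span of the 4 groups, the log2 distance from the lowest to the highest, had a median of 0.18 over the 72 members and of 0.26 over all genes. It stayed under 0.2 in 38 members (52.8%), against 37.5% of all genes, and exceeded 0.5 in 4 members (5.56%), against 21.4%. The 57 members that reached 10 FPKM had a median span of 0.14, where 8138 genes of that level had 0.21. The 15 members of 1 to under 10 FPKM had 0.32, where 5986 genes of that level had 0.32.

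**Figure D2:**
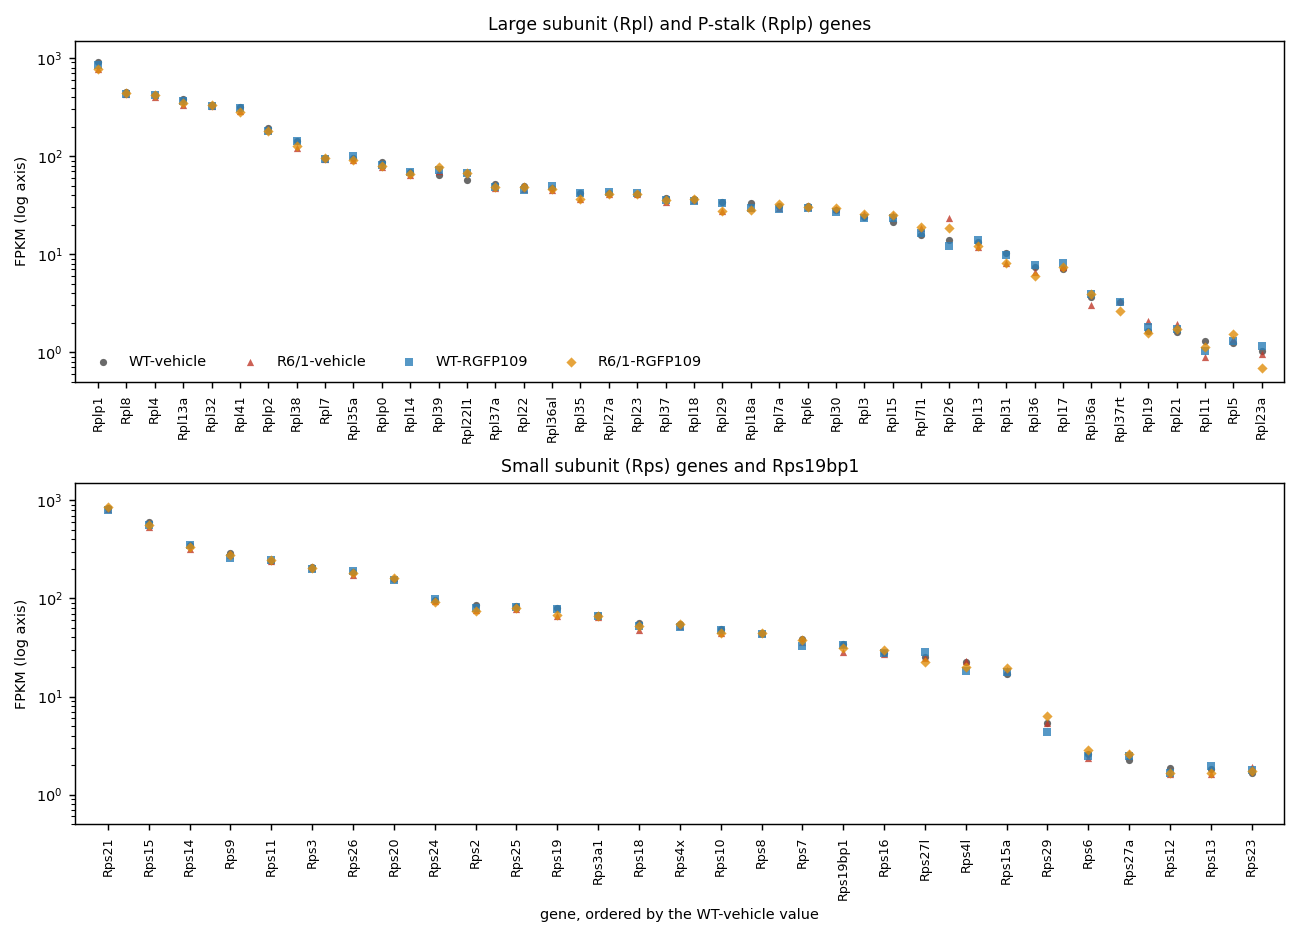
FPKM (log axis) of 71 of the 72 members in the 4 groups, each a symbol, with genes ordered by the WT-vehicle value and the large-subunit and stalk genes above the small-subunit genes. The symbols of most genes overlap, Rpl26 shows both R6/1 groups above both WT groups, and the right ends of both panels fall to a few FPKM.

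The genotype comparison with vehicle asks how the transgene goes with expression in mice given vehicle. Of the 72 members, 52 were lower and 20 higher in R6/1-vehicle than in WT-vehicle, so that 27.8% were higher, against 48.5% of all genes. The size was small, with a median log2 ratio of -0.07 (all genes -0.01). Past an absolute log2 ratio of 0.5 there were 1 member higher (background 4.27% of all genes) and 1 lower (background 10.8%), and past 0.2 there were 8 higher (background 20.7%) and 11 lower (background 26.9%). Large shifts were thus a smaller share of the members than of all genes, while most members lay a little under 0. Among the 57 members that reached 10 FPKM, 44 were lower, so that 22.8% were higher, against 47.35% of 8138 genes of that level. The medians were -0.07 for these members and -0.01 for those genes.

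Both subunits gave that picture. The 39 Rpl genes had a median log2 ratio of -0.06 with 26 lower (33.3% higher). The 29 Rps genes had -0.05 with 22 lower (24.1% higher), where 48.5% of all genes were higher. The stalk proteins, which bind the elongation factors, were all lower: Rplp0 went from 86.0 to 77.3 FPKM, Rplp1 from 907 to 768 and Rplp2 from 193 to 184, log2 ratios of -0.15, -0.24 and -0.07. Rps19, a small-subunit protein mutated in Diamond-Blackfan anaemia, was 80.6 in WT-vehicle and 66.4 in R6/1-vehicle. Rpl31 was 10.3 and 8.06, and Rpl29 was 33.7 and 27.3, log2 ratios of -0.35 and -0.30.

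Rpl26 was the member furthest above 0. This large-subunit protein sits at the exit of the peptide tunnel and is known to bind the p53 mRNA. It was listed at 13.83 FPKM in WT-vehicle and 23.19 in R6/1-vehicle, 1.67-fold higher, and at 12.04 in WT-RGFP109 and 18.42 in R6/1-RGFP109, 1.53-fold higher. Both R6/1 groups were above both WT groups, and each RGFP109 group was below the vehicle group of its genotype (log2 ratios of -0.34 in R6/1 and -0.20 in WT). The gene lies on chromosome 11, chr11:68901566-68904534 in the deposited mm10 coordinates. Of its windows 60.8% occurred at another locus, 10 loci in all.

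Rpl11 was the member furthest below 0 with vehicle. Rpl11 and Rpl5 form a particle with 5S rRNA that can bind the p53 regulator Mdm2. Rpl11 was 1.31 FPKM in WT-vehicle and 0.893 in R6/1-vehicle, a log2 ratio of -0.53, but 1.05 in WT-RGFP109 and 1.13 in R6/1-RGFP109, a ratio of 0.10. Rpl5 was 1.23 and 1.36 with vehicle and 1.32 and 1.55 with RGFP109. Both were near the minimum, with all coding windows shared, and the signs of the Rpl11 ratio differed between the treatments.

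Of the other members furthest from 0 with vehicle, several were again low. Rpl19 was 1.65 and 2.06 FPKM (log2 ratio 0.32), Rpl21 was 1.62 and 1.95 (0.26), and Rps27a, which is made as a fusion with ubiquitin, was 2.23 and 2.67 (0.26). Rpl36a was 3.67 and 3.01 (-0.28). Rpl22l1, the paralog of Rpl22, was better expressed at 57.6 and 68.2 (0.24).

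With RGFP109 in both genotypes the lean toward lower values was not seen. Of the 72 members, 36 were higher and 36 lower in R6/1-RGFP109 than in WT-RGFP109, with a median log2 ratio of -0.002 (all genes 0.01). Past 0.5 were Rpl26 and Rps29 on the higher side (background 3.86%) and Rpl23a on the lower (background 9.39%). Past 0.2 there were 5 higher (background 18.5%) and 8 lower (background 23.9%). The difference between the genotype ratios with vehicle and with RGFP109 was not tested, since the tables hold no spread.

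Rps29, a zinc-binding protein of the small subunit, was 5.38 FPKM in both vehicle groups, 4.32 in WT-RGFP109 and 6.34 in R6/1-RGFP109 (log2 ratio 0.55). Rpl23a, which stands at the tunnel exit, was 1.02 and 0.964 with vehicle and 1.17 and 0.691 with RGFP109 (-0.72). The lowest and highest values of both genes thus lay in the RGFP109 groups. Rpl36 was 7.70 in WT-RGFP109 and 6.05 in R6/1-RGFP109 (-0.35), Rps27l was 28.5 and 22.8 (-0.32), Rpl37rt was 3.27 and 2.64 (-0.30) and Rpl29 was 33.3 and 27.4 (-0.28). On the higher side Rpl5 had a log2 ratio of 0.23, and Rps6 (2.47 and 2.86) and Rpl7l1 (16.4 and 18.9) had 0.21 each.

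The genotype ratios with vehicle and with RGFP109 come from groups that do not overlap. Over the 72 members their Pearson correlation was 0.46 (Spearman 0.51), and 0.32 without Rpl26. Over the 57 members that reached 10 FPKM the Pearson value was 0.79 (Spearman 0.71), and 0.67 without Rpl26. Over all 14124 genes the Pearson value was 0.12 and the Spearman value 0.76. These are descriptions across genes of the same pooled libraries. In both comparisons 31 members were lower (43.1%, all genes 40.7%) and 15 higher (20.8%, all genes 41.0%). Past 0.2 in both were 3 lower members (4.17%, all genes 18.9%) and 2 higher members (2.78%, all genes 12.4%), the latter Rpl26 and Rpl7l1, a factor of 60S maturation related to Rpl7.

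**Figure D3:**
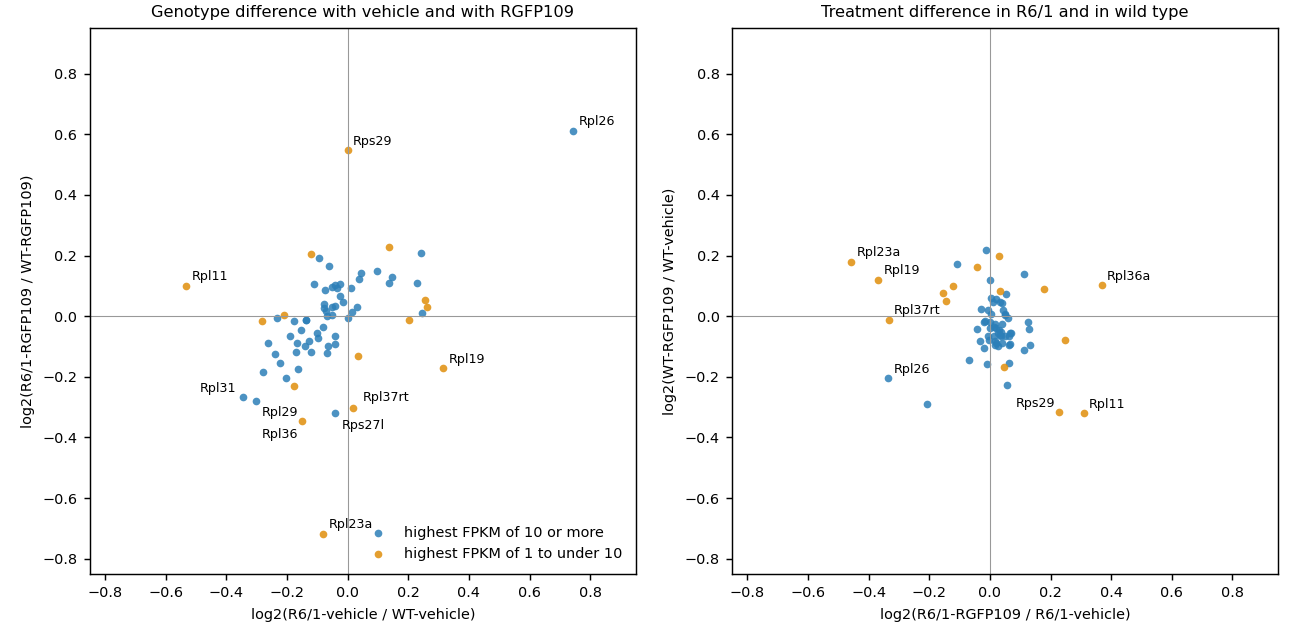
log2 ratios of the 72 members, 1 point per gene, with the genotype ratio with vehicle against that with RGFP109 (left) and the treatment ratio in R6/1 against that in WT (right), coloured by whether the highest FPKM reached 10. Rpl26 lies far up and right in the left panel at 0.74 and 0.61, and points of 1 to under 10 FPKM make up most of the outer points in the right panel.

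The treatment comparisons ask what RGFP109 goes with in each genotype. In R6/1, 49 members were higher and 23 lower with RGFP109 (68.1% higher, all genes 51.3%), with a median log2 ratio of 0.02 (all genes 0.002). In WT, 26 were higher and 46 lower (36.1% higher, all genes 48.5%), with a median of -0.04 (all genes -0.002). Past 0.5 there were 0 members in either genotype, against backgrounds of 1.69% higher and 1.76% lower in R6/1 and of 1.88% higher and 2.49% lower in WT. Past 0.2 in R6/1 there were 4 higher (background 5.03%) and 5 lower (background 5.53%), and in WT 1 higher (background 6.45%) and 5 lower (background 9.35%). The directions of the medians differed between the genotypes, by amounts far under either size, and that difference was not tested.

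In R6/1 the largest treatment ratios above 0 belonged to Rpl36a (0.37), Rpl11 (0.31), Rps6 (0.25), Rps29 (0.23) and Rpl5 (0.18), all under 10 FPKM. Those furthest below 0 belonged to Rpl23a (-0.46), Rpl19 (-0.37), Rpl26 (-0.34), Rpl37rt (-0.33) and Rps4l (-0.21). In WT the largest above 0 were those of Rpl22l1 (0.22), Rpl17 (0.20), Rpl23a (0.18), Rps27l (0.17) and Rps27a (0.16). Furthest below 0 in WT were Rpl11 and Rps29 (both -0.32), Rps4l (-0.29), Rps7 (-0.23) and Rpl26 (-0.20). Rpl26 and Rps4l were the members past 0.2 below 0 in both genotypes (2.78%, all genes 2.00%), and 0 members were past 0.2 above 0 in both (all genes 0.977%), counts near those shares. The treatment ratios in R6/1 and in WT come from groups that do not overlap. Their Pearson correlation was -0.22 over the 72 members (Spearman -0.23), and -0.31 without Rpl26. Over the 57 that reached 10 FPKM the Pearson value was 0.23 (Spearman -0.03), and 0.09 without Rpl26. Over all 14124 genes the Pearson value was -0.03 and the Spearman value 0.01.

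Placing the 4 groups in order for each gene summed these ratios up. WT-vehicle was the highest group for 32 members (44.4%, all genes 31.2%), and R6/1-vehicle the lowest for 29 (40.3%, all genes 26.4%). R6/1-vehicle was the highest for 9 (12.5%, all genes 23.5%). Values of 1 group differed between the tables by a common factor of at most 1.04, which limits how closely levels can be set side by side across tables.

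Paralog pairs differed in how far apart their levels lay. Rpl22 was 49.8 FPKM in WT-vehicle and 46.1 in R6/1-vehicle while its paralog Rpl22l1 was 57.6 and 68.2, so the order with vehicle was paralog over parent. With RGFP109 Rpl22 was 45.0 in WT and 48.4 in R6/1, and Rpl22l1 was 67.3 and 67.9. Rpl36al, a retrotransposed relative of Rpl36a, was 47.7 and 45.6 with vehicle beside 3.67 and 3.01 for Rpl36a. Rpl39 was 64.9 and 71.3 beside 0.218 and 0.0846 for Rpl39l. Rpl3 was 23.8 and 25.4, Rpl7 was 95.9 and 94.1, and Rps4x was 55.1 and 52.3 where Rps4l was 22.3 and 22.9.

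The coding sequences of Rpl36a and Rpl36al, and of Rpl39 and Rpl39l, start much alike. Capitals mark the positions that differ within a pair.
Rpl36a: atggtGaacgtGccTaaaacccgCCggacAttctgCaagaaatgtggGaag
Rpl36al: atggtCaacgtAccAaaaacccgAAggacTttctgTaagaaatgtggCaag
Rpl39: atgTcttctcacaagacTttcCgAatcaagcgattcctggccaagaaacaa
Rpl39l: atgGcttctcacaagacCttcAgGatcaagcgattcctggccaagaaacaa
Of 51 positions 8 differed in the first pair and 4 in the second, so these windows are not among those the genes share with each other. Other pairs were less alike. The windows differed at 11 positions for Rpl3 and Rpl3l, 26 for Rpl22 and Rpl22l1 and 32 for Rpl7 and Rpl7l1. Rpl10 and Rpl10l differed at 8. Rps19bp1, which binds Rps19 and is no ribosomal protein, was 34.4 and 28.6 FPKM with vehicle (log2 ratio -0.26) and 33.5 and 31.5 with RGFP109.

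The promoters shared a feature that the rule did not use. In RefSeq (GRCm38.p6) 63 members had an annotated start on the deposited chromosome. Members under 1 FPKM are included here, unlike in the background. An unbroken run of 8 or more C or T on the coding strand, within 40 bases to either side of the start, stood at 47 of the 63 (74.6%), and at 31.5% of 10324 genes of at least 1 FPKM. The share was 34.3% for mitochondrial ribosomal protein genes, 25.0% for nuclear genes of oxidative phosphorylation and 19.4% for proteasome genes. Of the windows, those of 4 genes are given because their genes recur above, with the longest run in capitals.
Rpl26: tgtagTTCTCTTTCCTTTTgcggccatcgg
Rpl11: ggaagTCTCCCTCTCTCTTCCTgttctcca
Rps6: tcgggCCTCTTTTTCgtgacgcctcccagg
Rpl4: acaagTCTTTCCTTTTCCTgtgggagcagc
They lie at chr11:68901582-68901611 (plus strand), chr4:136053356-136053385 (minus), chr4:86857344-86857373 (minus) and chr9:64173364-64173393 (plus). Of members that reached 10 FPKM 34 of 43 had a run, and of those under 10 FPKM 13 of 20 did. A run is a description of letters near an annotated start and does not place the start of the mRNA.

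Other genes of the ribosome and of translation were read from lists. Of ribosomal components named otherwise, Rpsa was 2.33 FPKM in WT-vehicle and 1.56 in R6/1-vehicle (log2 ratio -0.56), and Fau, which carries the small-subunit protein S30, 11.0 and 8.52 (-0.37). Rack1, listed under its older symbol Gnb2l1, was 206 in both. With RGFP109 the genotype ratios were -0.29, -0.20 and 0.06 in the same order.

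Elongation factors, several of whose mRNAs also carry 5′ TOP tracts, gave 1 of 7 genes past 0.2 on the higher side (all genes 20.7%) and 0 on the lower (all genes 26.9%) with vehicle. Eef1a1, the factor that brings aminoacyl-tRNA, was 463 FPKM in WT-vehicle and 547 in R6/1-vehicle (log2 ratio 0.24, and 0.29 with RGFP109). Its neuronal counterpart Eef1a2 was 439 and 417 (-0.08). Eef2, the translocase, was 454 and 445 (-0.03), Eef1b2 98.5 and 99.4 (0.01), Eef1d 34.4 and 32.0 (-0.10), Eef1g 21.7 and 20.0 (-0.12) and Eif5a 175 and 160 (-0.13). The treatment ratios of all 7 lay between -0.06 and 0.04 in both genotypes.

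Of 32 initiation factor genes, 19 were higher in R6/1-vehicle and 24 in R6/1-RGFP109 than in the WT group of the same treatment, with medians of 0.04 and 0.08. Of all genes, 48.5% were higher with vehicle and 51.2% with RGFP109. Furthest above 0 with vehicle was Eif4a2, an RNA helicase (0.34), and furthest below was Eif3k (-0.20). Of 36 ribosome biogenesis genes, 26 and 28 were higher, with medians of 0.08 and 0.09. Fbl, the rRNA methyltransferase fibrillarin, was 3.25 and 4.47 FPKM with vehicle (0.46) with a ratio of 0.78 with RGFP109, while Nhp2, a core protein of H/ACA particles, was 53.7 and 32.9 (-0.71), and -0.47 with RGFP109. Of 14 other 5′ TOP genes, 5 were higher with vehicle and 7 with RGFP109, with Npm1 (0.35) furthest above and Tpt1 (-0.33) furthest below 0 with vehicle. Of 12 mTOR pathway genes, 7 and 8 were higher, with Rps6kb1, the S6 kinase, at 0.28 and Eif4ebp1 at -0.53 with vehicle. With vehicle the share above 0 was 59.4% of the initiation genes and 72.2% of the biogenesis genes, beside 48.5% of all genes and 27.8% of the ribosomal protein genes, a difference that was not tested. Lists overlap, as the elongation factors also stand among the 5′ TOP genes.

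Other large complexes were set beside the members. For 76 mitochondrial ribosomal protein genes the median log2 genotype ratio was -0.001 with vehicle and 0.03 with RGFP109. For 80 nuclear genes of oxidative phosphorylation it was -0.09 and -0.07, with 56 and 57 genes lower. For 37 proteasome genes it was 0.08 and 0.11, with 28 and 35 higher. The treatment medians of the 3 sets lay between -0.02 and 0.01 in both genotypes.

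**Figure D4:**
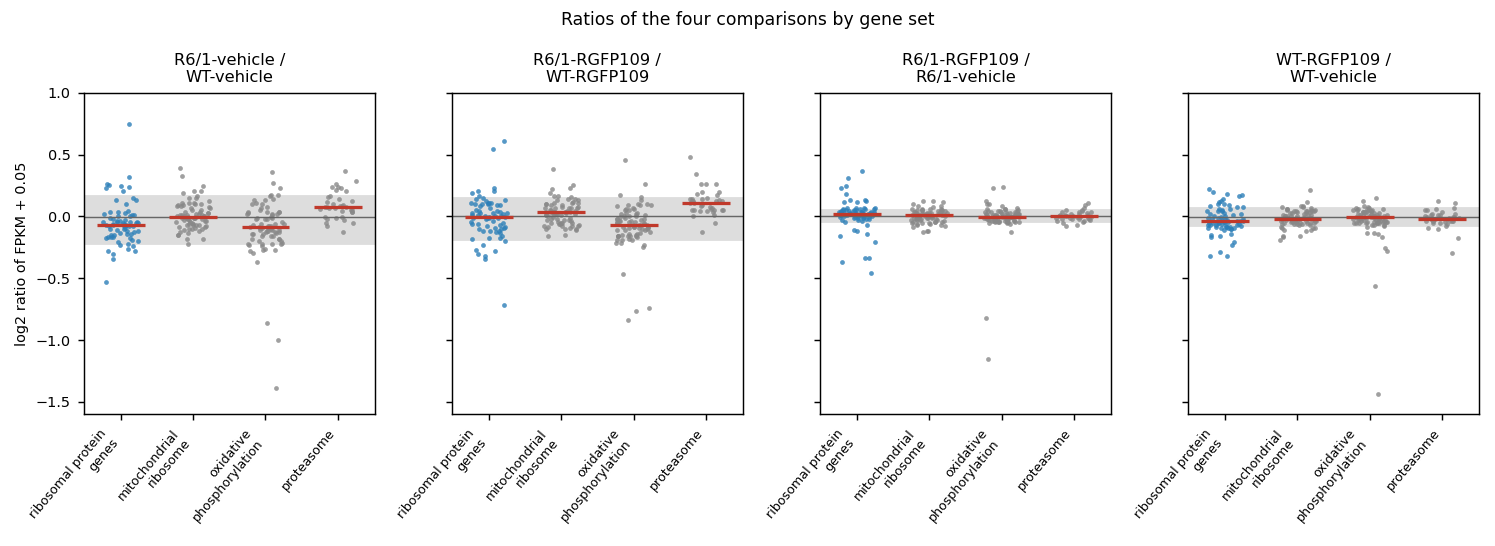
log2 ratios (FPKM plus 0.05) in the 4 comparisons for the ribosomal protein genes and for 3 other gene sets, 1 point per gene of at least 1 FPKM, with the set's median as a red bar and the middle 50% of all genes as a grey band around their median line. The median bar of the ribosomal protein genes is at -0.07 in the first panel and near 0 in the second, and that of the proteasome genes is above 0 in both.

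Cell type markers also differed between the groups. The tissue expressed striatal projection neuron genes, with Ppp1r1b at 1149 FPKM in WT-vehicle and 447 in R6/1-vehicle, and the 8 markers of that list summed to 3192 and 1231. The 5 oligodendrocyte markers summed to 4364 in WT-vehicle and 2387 in R6/1-vehicle, and to 3405 and 2714 with RGFP109. The 5 cortical markers summed to 343 and 189 with vehicle and to 318 and 241 with RGFP109, and the 5 choroid plexus markers to 1467 and 618 with vehicle and 313 and 33.3 with RGFP109. With vehicle the remaining lists were also lower in R6/1-vehicle in sum, at 1701 and 1441 for neurons, 574 and 396 for astrocytes, 166 and 137 for microglia, 34.1 and 27.0 for ependyma, 22.5 and 15.7 for endothelium, 49.8 and 22.8 for blood and 6.58 and 4.08 for skeletal muscle. Of the neuronal markers Stmn2 went the other way, at 168 and 218 (log2 ratio 0.38). With RGFP109 ependyma was higher in R6/1, at 21.9 in WT and 25.0 in R6/1 with 4 of 4 markers higher, and the others were again lower. No list had a marker at 0 in both groups of a pair. The part of these lists in the ratios above was not tested, and in bulk tissue fewer cells of a type and less RNA per cell cannot be told apart.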

How the data were processed

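Striatal RNA of 24 mice was sequenced from 380 ng per library as single reads of 51 bases, in 2 pools that each held libraries of all 4 groups (the pool of a single library is not given in the sources used here). The authors aligned the reads with STAR 2.5.0b to mm10, estimated expression with Cufflinks 2.2.1 and deposited 6 Cuffdiff tables, 1 per pair of groups, each with 1 FPKM value per group, pooled over its libraries and scaled within the pair. The tables also hold the authors' own log2 fold change, test statistic, p-value and q-value, which were not used. Without counts the depth is unknown, and values carry no counting interval.

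Ratios were log2 of FPKM plus 0.05, within the table of the pair, which understates the ratio of low genes. Members and all genes needed 1 FPKM in any group. Ratios past 0.5 and 0.2 were counted. With 1 value per group no test was possible. Genes were named by a rule: members past 0.5, the 5 furthest in each direction per comparison, the 10 highest and 5 lowest levels, stalk genes, paralog pairs, and leading genes of the lists. Rpl19 and Rps23 tied for the fifth lowest level. Genes used to show the shared windows, starts and marker lists were chosen after their values were seen. The results of a few genes under this rule are not reported here. Members and lists were chosen with earlier results of these data known.

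Coordinates are those deposited, with 1 added to the start, and overlapped the RefSeq GRCm38.p6 gene of the symbol for 84 of 85 members. The deposited locus exceeded the gene for some members, and it was over 50 kb for 5 (Rpl5, Rpl31, Rpl38, Rps4l and Rps15). Shared windows were exact matches on either strand among annotated transcripts of GENCODE M21, pseudogenes included, outside the gene's own locus, and unannotated copies were not searched. The work was done in Python 3.11.15 with matplotlib 3.10.9, pandas 2.3.3, scipy 1.17.1 and numpy 2.4.6, and the ratio code was tested on simulated data.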

Additional observations from a re-analysis of the deposited data

Results flagged for a closer look

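In 2 of the 72 members the treatment ratio passed 0.2 on the log2 scale in opposite directions in the genotypes. The share of all genes that did so was not counted, so the 2 cannot be called many or few. Of all genes, 5.03% were past 0.2 on the higher side in R6/1 and 9.35% on the lower side in WT. Rpl11 was higher with RGFP109 than with vehicle in R6/1 (log2 ratio 0.31) and lower in WT (-0.32). Rps29 was likewise higher in R6/1 (0.23) and lower in WT (-0.32). Both differences rest on 1 pooled value per group and were not tested, both genes stayed under 10 FPKM, and every coding window of both occurred at another annotated locus.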

How the results depend on the processing

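No paired analysis was possible because the tables hold 1 pooled value per group, and for the same reason no library could be left out. All 4 median log2 ratios moved by under 0.05 under every alternative. That limit exceeds the size of each median except that of genotype with vehicle, and all alternatives draw on the same pooled values. The alternatives were pseudocounts of 0 and 1 FPKM, no minimum or a minimum of 10 FPKM, and centring on the median of all genes. Further ones were ratios assembled through other groups and core subunits only (66 genes, here with Rpl37rt kept). The last, chosen after seeing the data, was members with under 99% of their coding windows shared. The medians ranged from -0.07 to -0.06 for genotype with vehicle. For genotype with RGFP109 they ranged from -0.01 to 0.002, where the sign depended on the setting. They ranged from 0.02 to 0.03 for treatment in R6/1 and from -0.05 to -0.03 for treatment in WT. Counts past the fold were small and moved more. For genotype with vehicle the count of 2 became 1 with a pseudocount of 1 FPKM, 8 with no minimum, 1 with a minimum of 10 FPKM, 1 among members with under 99% of coding windows shared, 19 past 0.2 and 0 past 1. For genotype with RGFP109 the count of 3 became 1, 6, 1, 1, 13 and 0 in that order. For treatment in R6/1 the count of 0 became 9 past 0.2, and in WT it became 3 with no minimum and 6 past 0.2. The member left with a minimum of 10 FPKM was Rpl26 in both genotype comparisons.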
